A study of Drosophila melanogaster with 2 samples.

Results

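Small nucleolar RNA (snoRNA) genes and the genes that carry them were examined for binding of Sox102F, a SoxD-family transcription factor of the fly. The snoRNA genes were all 269 genes of that biotype on arms 2L, 2R, 3L, 3R, 4 and X in the dm6 annotation, of 18164 genes in all. A host was any protein-coding, non-coding RNA or pseudogene entry whose body held a whole snoRNA gene, on either strand. There were 109 hosts, and 257 of the 269 snoRNA genes (95.5%) had at least 1. A summit, the base at the top of a peak, was called a promoter summit when it lay within 500 bp of any annotated start of the gene. For snoRNA genes a distance of 1 kb from the start was also used.

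Chromatin was taken from intact animals at the white prepupal stage, when the larva has stopped moving and metamorphosis starts, with both sexes pooled. The flies were from 1 transgenic line that expresses Sox102F with GFP fused to its C terminus, and chromatin was precipitated through the GFP tag after shearing by sonication. The antibody field of the labels names Sox102F, while their free text names GFP. Both samples, biological replicates 1 and 4, belong to 1 group, and no untagged line, other genotype or other stage was analysed here. The authors' optimal list held 7055 summits with a signal of 76.7 to 2702 and a median of 135.4. Signal is the authors' own value for a peak, its unit is not given in the sources used here, and the depth of each library is unknown. The lists of replicate 1, replicate 4 and both pooled held 30000 entries each, background included, and the 7055 strongest of a replicate were used where that replicate was read alone. Values in 2 replicates are given as both values, and whole animals mix all cell types, so nothing here says in which cells a site was bound.

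snoRNAs guide the chemical modification of other RNAs. Box C/D snoRNAs direct methylation of the ribose of ribosomal RNA, box H/ACA snoRNAs direct its pseudouridylation, and the related scaRNAs act on the small nuclear RNAs of the spliceosome. In flies most snoRNAs have no promoter of their own: they lie in introns of other genes and are cut from the spliced intron. The start of a host transcript that spans the snoRNA is then the start of the snoRNA's own transcript. Many hosts encode ribosomal proteins or other parts of the translation machinery. The Uhg genes are hosts whose spliced RNA codes for no protein. Transcription of ribosomal protein genes usually begins in a run of pyrimidines.

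The sequences below set 4 ribosomal protein hosts with a promoter summit beside 3 hosts without one in the optimal list. Each run is on the strand of the gene, 5′ to 3′, in dm6 coordinates of the release 6 assembly, RefSeq copy. It goes from 80 bp upstream of the start used by most transcripts to 20 bp downstream. Capitals mark the letters CTTT on the gene strand with their C within 5 bp of the start, and the letters TATCGATA. The windows are RpS5a at chrX:17148244-17148344 on the minus strand, RpL14 at chr3L:8600926-8601026 on the plus strand, RpL13A at chr3R:5624394-5624494 on the plus strand, RpS3A at chr4:67187-67287 on the minus strand, Arpc2 at chr2L:20416977-20417077 on the plus strand, Sf3b3 at chr3L:833365-833465 on the minus strand and Uhg2 at chr2L:9894983-9895083 on the minus strand.
RpS5a, with a summit: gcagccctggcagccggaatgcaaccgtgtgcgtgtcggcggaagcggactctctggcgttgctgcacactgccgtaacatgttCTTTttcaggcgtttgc
RpL14, with a summit: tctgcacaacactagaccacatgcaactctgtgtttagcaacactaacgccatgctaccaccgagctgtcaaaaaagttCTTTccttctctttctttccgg
RpL13A, with a summit: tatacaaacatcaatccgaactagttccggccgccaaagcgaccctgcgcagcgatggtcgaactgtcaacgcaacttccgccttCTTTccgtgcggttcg
RpS3A, with a summit: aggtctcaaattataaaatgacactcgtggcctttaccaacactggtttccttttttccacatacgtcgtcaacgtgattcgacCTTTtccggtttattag
Arpc2, no summit: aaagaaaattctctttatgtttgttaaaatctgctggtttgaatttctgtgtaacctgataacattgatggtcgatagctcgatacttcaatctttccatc
Sf3b3, no summit: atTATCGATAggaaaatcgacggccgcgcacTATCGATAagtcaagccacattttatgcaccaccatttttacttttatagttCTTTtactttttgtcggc
Uhg2, no summit: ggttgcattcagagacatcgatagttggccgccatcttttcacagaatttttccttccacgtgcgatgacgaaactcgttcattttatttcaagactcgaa
In these 4 ribosomal protein windows the summit itself falls inside the printed run, between 6 and 43 bp upstream of the start. Sf3b3 carries both kinds of capital and has no summit. The windows are examples: all 4 with a summit carry CTTT, and no ribosomal protein host without a summit is shown. Arpc2 and Uhg2 had promoter entries among the strongest of replicate 1.

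The snoRNAs closest to a host promoter summit, and a pair held by RpL14, are shown next as whole genes on their own strand. In the box C/D snoRNAs capitals mark the box C letters TGATGA and the box D letters CTGA. In the box H/ACA snoRNA they mark the ACA near the 3′ end. U49:66Da is at chr3L:8601473-8601552, U49:66Db at chr3L:8601948-8602031 and Me18S-G1358c at chr3L:27267383-27267450, all on the plus strand, and Or-aca2 is at chrX:7901062-7901203 on the minus strand.
U49:66Da, in RpL14: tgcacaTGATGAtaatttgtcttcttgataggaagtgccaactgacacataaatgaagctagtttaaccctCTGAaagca
U49:66Db, in RpL14: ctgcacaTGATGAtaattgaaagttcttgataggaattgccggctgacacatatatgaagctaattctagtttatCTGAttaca
Me18S-G1358c, in RpL15: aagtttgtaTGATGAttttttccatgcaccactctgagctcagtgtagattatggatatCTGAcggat
Or-aca2, in RpS6: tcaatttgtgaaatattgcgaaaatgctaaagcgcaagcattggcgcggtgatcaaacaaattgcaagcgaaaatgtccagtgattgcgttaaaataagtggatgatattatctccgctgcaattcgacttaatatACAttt
The summit at the RpL14 start lies 473 bp upstream of U49:66Da and 948 bp upstream of U49:66Db, so 1 summit is counted for both. No optimal summit lay inside the body of any of the 269 snoRNA genes.

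By their symbols, 109 of the snoRNA genes (40.5%) were box C/D, 114 (42.4%) box H/ACA and 16 scaRNAs, and the symbol gave no class for 30. They were 46 to 316 bp long, with a median of 134 bp. Introns alone held 229 of them, 14 lay in an intron of 1 transcript and an exon of another, 4 in exons, 10 had a host on the opposite strand only, and 12 had none. Of the hosts, 96 were protein-coding, 12 were non-coding RNA genes and 1 was a pseudogene. On the snoRNA's own strand were 95 hosts, and 14 were on the other strand only. Copies of a snoRNA often share a host. Symbols that differ only by a last letter after a digit were grouped as copies of 1 family. Of 37 such families with 2 or more hosted copies, 34 had exactly the same set of hosts for every copy. A family whose copies shared a host but differed in an additional host was not among the 34. Copies named in other ways, such as the pair held by RpL14, were counted as separate families, so both counts depend on this grouping. Because hosts are shared, snoRNA genes are not independent observations of a promoter.

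Host promoters carried Sox102F-GFP summits more often than the background of all genes. A promoter summit was present at 49 of 109 hosts (45%), against 15.5% of all protein-coding, non-coding RNA and pseudogene entries. In the 7055 strongest entries of each replicate the counts were 61 hosts (56.0%) in replicate 1 and 44 (40.4%) in replicate 4, against a background of 18.1% and 14.8% in the same lists. Both replicates held a promoter summit at 41 hosts (37.6%), a share that was not counted over all genes. Among protein-coding hosts 46 of 96 (47.9%) had a summit, against 17.1% of all protein-coding genes. Among non-coding RNA hosts 2 of 12 (16.7%) did, against 9.84% of non-coding RNA genes, a difference that rests on 2 genes. The protein-coding background was 20.2% in replicate 1 and 16.3% in replicate 4, and that of non-coding RNA genes was 10.2% and 9.38%. These shares are descriptions without a test, since 1 group of animals allows none over samples.

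Genes with more annotated starts have more chances to hold a promoter summit, and hosts had a higher share at each number of starts. With 1 start, 17 of 45 protein-coding hosts (37.8%) had a summit, against 10.8% of other protein-coding genes. With 2 starts it was 12 of 25 (48%) against 26.4%, and with 3 or more it was 17 of 26 (65.4%) against 50.9%. Without the ribosomal protein genes the shares were 7 of 32 (21.9%), 6 of 17 (35.3%) and 11 of 18 (61.1%). The gap to other genes was therefore narrower outside the ribosomal protein group. Hosts with a promoter summit had a median length of 3280 bp and hosts without one 3796 bp, whereas protein-coding genes with one had a median of 4677 bp and those without one 1936.5 bp. Ribosomal protein hosts are short, with a median of 1792 bp.

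Ribosomal protein genes were the kind of host with the largest number of promoter summits. They made up 29 of the hosts, and 22 of them (75.9%) had a promoter summit, with 25 in replicate 1 and 20 in replicate 4. Together they hold 76 snoRNA genes, 63 of them in the hosts with a summit. Ribosomal protein genes that carry no snoRNA also had many: 38 of 64 (59.4%) had a promoter summit, with 43 in replicate 1 and 35 in replicate 4. The median signal was 204.9 at ribosomal protein hosts and 239.9 at ribosomal protein genes that are not hosts.

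**Figure D1:**
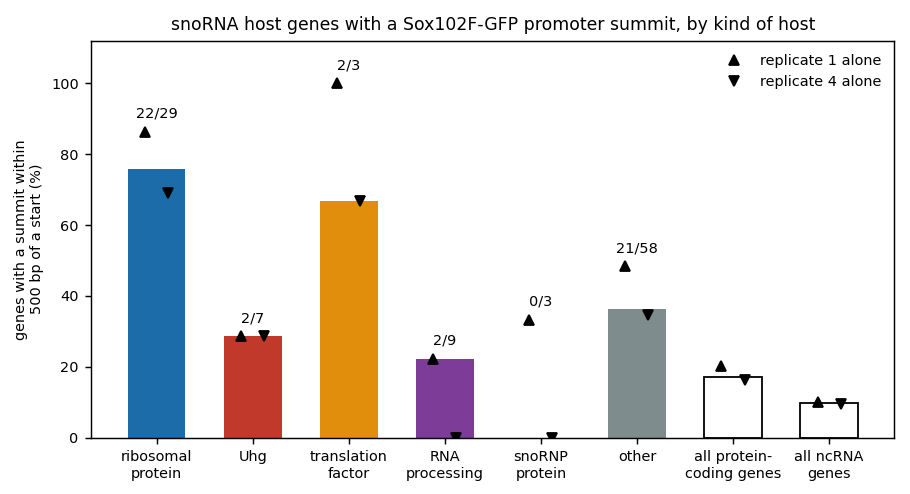
Share of host genes with a Sox102F-GFP summit within 500 bp of a start, by kind of host, with all protein-coding and all non-coding RNA genes at the right. Bars give the optimal list, with counts above them, and triangles give the strongest 7055 entries of replicate 1 (up) and replicate 4 (down); ribosomal protein hosts stand at 75.9% and all protein-coding genes at 17.1%.

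Outside the ribosomal protein group the share was lower, at 27 of 80 hosts (33.8%), and at 24 of 67 (35.8%) when only protein-coding hosts were counted, against 17.1% of all protein-coding genes. Of the 3 hosts that encode translation factors, pAbp (the poly(A)-binding protein) and eEF1alpha1 (an elongation factor, signal 223) had a summit, and kra (a regulator of translation initiation) did not. Of 9 hosts that encode splicing or other RNA-processing proteins, 2 had one: SC35, a splicing factor, with a signal of 111 (66.6 in replicate 1 and 30.8 in replicate 4), and Rbfox1, an RNA-binding regulator of splicing, with 91.8 (60.6 and 33.7). Replicate 1 alone also had 2 of the 9, and replicate 4 alone had 0. None of the 3 hosts that encode snoRNP proteins did, although 1 of them (Fib) had a promoter entry of 53.1 among the strongest of replicate 1. The remaining 58 hosts, of many functions, had 21 (36.2%). The translation, RNA-processing and snoRNP kinds were assigned by hand after the values were seen.

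The genes of the snoRNP proteins that work with these RNAs gave counts that depended on the list. Of 11 such genes, only pont had one in the optimal list (9.09%, against 17.1% of protein-coding genes). pont encodes an AAA+ ATPase that takes part in snoRNP assembly, and its summit had a signal of 248, with 157 in replicate 1 and 92.2 in replicate 4, 123 bp from the start. The box C/D core genes Fib (the methyltransferase), nop5, Nop56 and hoip had none, nor did the box H/ACA core genes Nop60B (the pseudouridine synthase), NHP2, Gar1 and Nop10, nor Nopp140 (a nucleolar chaperone of snoRNPs) or rept (the partner ATPase of pont). Replicate 1 alone had 6 of the 11 (54.5%, against 20.2% of protein-coding genes) and replicate 4 alone 3 (27.3%, against 16.3%). NHP2 had a signal of 154 in replicate 1 and 149 in replicate 4, yet no entry of the pooled list lay within 500 bp of its start. Nop56 had promoter entries of 58.2 in replicate 1 and 45.7 in replicate 4, and it too had no pooled promoter entry.

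The strongest host promoter summits were not at ribosomal protein genes. Stt3A, the catalytic subunit of oligosaccharyltransferase and host of 3 snoRNA genes, had a signal of 1381, with 644 in replicate 1 and 735 in replicate 4. CG12316 had 999.2, with 429 in replicate 1 and 565 in replicate 4. bun, a TSC22-domain gene, had 815, with 353 in replicate 1 and 459.6 in replicate 4. All of these exceed the median optimal signal of 135.4 several times, and each of the 3 is high in both replicates. The snoRNA genes in bun and in mtgo, which is given below, lie on the strand opposite to the host. Next came Msp300, a nesprin that anchors nuclei to the cytoskeleton, with 758 (361 and 395 in replicates 1 and 4). lola, which encodes a large set of BTB zinc-finger factors, had 547 (227 and 312). CG1142 had 524 (236 and 287). In the 6 strongest, replicate 4 was the higher of the replicates every time. The 7th was Uhg4, a non-coding host, with 461 (256 and 203), and here replicate 1 was the higher.

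Ribosomal protein hosts entered the order below these. RpL14 had 442 (253 and 192 in replicates 1 and 4), and RpL13A 378 (218 in replicate 1, and no entry within 100 bp in replicate 4). RpS4 had 349.8 (225 and 127). Among the 15 strongest were also mtgo with 424 (228 and 193), pAbp with 399 (229.8 and 178), drn with 362 (161 and 214), RpL3 with 341 (161 and 177) and RpL30 with 324 (149 and 168). Replicates differed by less than 1.5 times at most of these genes, and by more at RpS4. Across all 49 hosts the signal ran from 77.4 at Uhg8 to 1381 at Stt3A with a median of 215, against 162 for the 1922 promoter summits of protein-coding genes, each gene's strongest. Among the 3527 strongest of the 7055 optimal summits were 33 of the 49 (67.3%), each host counted by its strongest promoter summit. The same share for promoter summits of all protein-coding genes was not counted. RpS6 and the pseudogene CR33222, which overlap, share 1 summit, so the 49 hosts had 48 distinct summits.

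**Figure D2:**
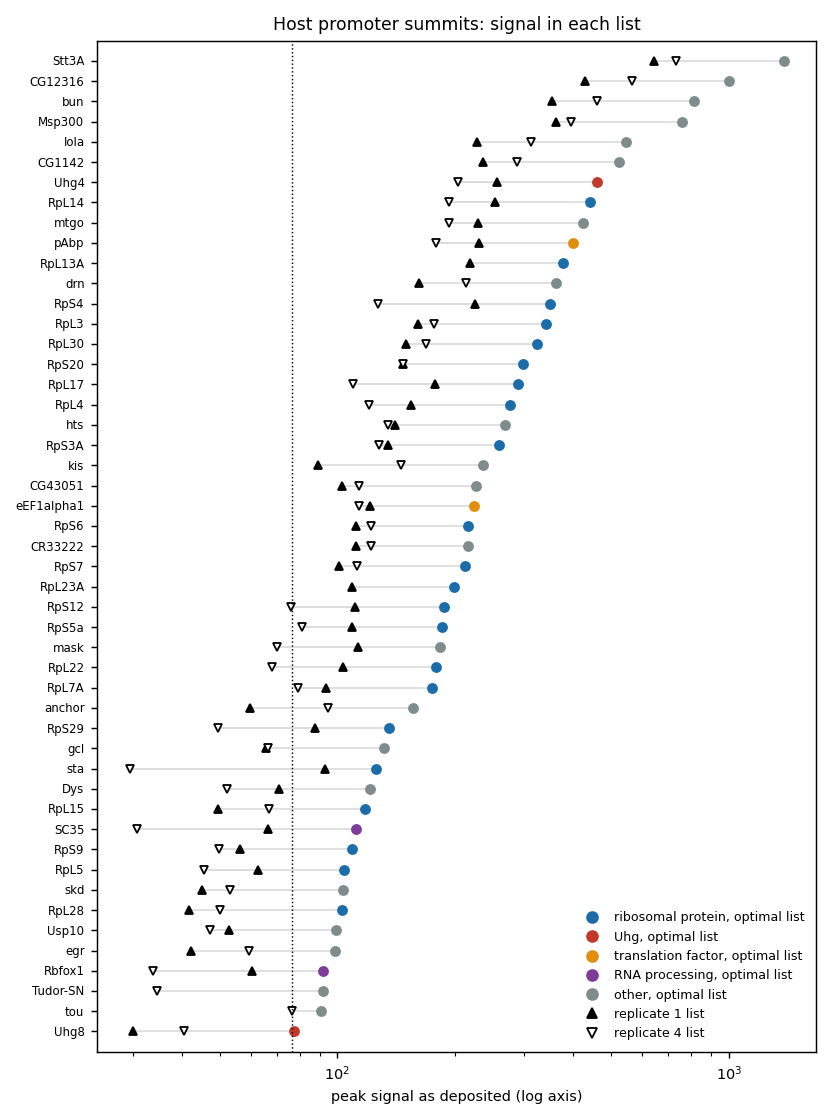
Deposited peak signal on a log axis for each of the 49 hosts with a promoter summit, strongest at the top. Coloured circles give the optimal list by kind of host, filled and open triangles give replicates 1 and 4 where an entry lay within 100 bp, and the dotted line marks the lowest optimal signal of 76.7; ribosomal protein hosts fill the middle of the order and Stt3A leads it.

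The other ribosomal protein hosts with a summit formed a continuous range. The large-subunit genes were RpL17 (289), RpL4 (276), RpL23A (198), RpL22 (179), RpL7A (175), RpL15 (118), RpL5 (104) and RpL28 (102). The small-subunit genes were RpS20 (297), RpS3A (259), RpS6 (215), RpS7 (212), RpS12 (187), RpS5a (185), RpS29 (135), sta (126) and RpS9 (109). No break separated the subunits. RpL23A had 109 in replicate 1 and no entry within 100 bp in replicate 4, and sta had 93.2 in replicate 1 and 29.5 in replicate 4. At the rest both replicates had an entry. Ribosomal protein hosts without a promoter summit in the optimal list included RpS16, RpL10Ab, RpL11, RpL27A and RpL36A.

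Summits of ribosomal protein hosts lay closer to the start than those of other hosts. They had a median position of −5 bp from the nearest start, where a negative value is upstream, and 20 of 22 (90.9%) lay within 100 bp. In the other hosts the median was −135 bp and 9 of 27 (33.3%) lay within 100 bp. For the promoter summits of all protein-coding genes the median was −99 bp, with 40.3% within 100 bp. Ribosomal protein genes that are not hosts had a median of −16 bp, with 34 of 38 (89.5%) within 100 bp, so the close position was shared by ribosomal protein genes with and without a snoRNA. The exceptions among ribosomal protein hosts were RpL28, whose summit was 282 bp from its start and 99 bp from the start of the neighbouring gene eIF1, and RpS20, at 125 bp. In replicate 1, RpL28 also had a promoter entry of 172 more than 100 bp from that summit, where the value was 41.9. The position of RpL28 therefore depends on the list. At the hosts with the highest signal the strongest summit was further out: 395 bp at Stt3A, 383 bp at bun, 351 bp at Msp300 and 161 bp at CG12316. bun also had a weaker optimal summit 5 bp from a start. The Stt3A summit was nearer to the start of bves, at 214 bp. Of the 49 host summits 19 (38.8%) had a start of another gene within 500 bp, against 43.1% of all protein-coding genes with a promoter summit, and 7 were nearer to that other start.

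**Figure D3:**
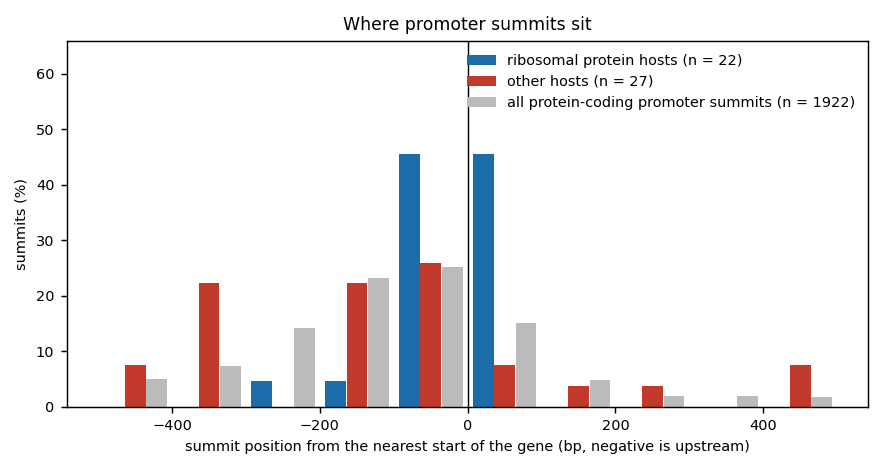
Position of the strongest promoter summit relative to the nearest start of its gene in bins of 100 bp, as a percent of the summits in each set: ribosomal protein hosts (n = 22), other hosts (n = 27) and protein-coding genes (n = 1922). Summits of ribosomal protein hosts gather on both sides of the start, 20 of 22 within 100 bp, while those of other hosts spread from −446 to 483 bp.

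A few hosts lay near the distance limit of 500 bp. Just inside it, by their strongest promoter summit, were lola at −418 bp, skd at −446 bp, Rbfox1 at 472 bp and pAbp at 483 bp. lola did not depend on the limit, since another optimal summit lay 6 bp from one of its starts. Just outside it, stet had a summit at −538 bp with a signal of 122 and counted as a host without one. Msp300, tou and mtgo had further summits at −564, −548 and 573 bp, and each of the 3 already had one within the limit. Widening the limit to 1 kb brought the hosts to 50, and narrowing it to 250 bp left 40. The matching shares over all genes were not counted at these limits.

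The share of hosts with a promoter summit did not climb steadily with the number of snoRNA genes they hold. Hosts with 1 snoRNA gene had a summit in 25 of 69 cases (36.2%), hosts with 2 to 3 in 15 of 18 (83.3%), hosts with 4 to 7 in 8 of 15 (53.3%) and hosts with 8 or more in 1 of 7 (14.3%), against 15.5% of all protein-coding, non-coding RNA and pseudogene entries. The last count depended on the list: replicate 1 alone gave 4 of 7 (Arpc2, dom, RpS5a and kra) and replicate 4 alone 1 of 7. The classes also differ in their share of ribosomal protein genes, and the counts were not split by kind of host. In the class with 8 or more, the host with a summit in the optimal list was RpS5a, the only ribosomal protein gene there. RpS5a holds 14 box H/ACA genes of 4 families. Its signal was 185, with 109 in replicate 1 and 81.3 in replicate 4, and its summit lay 43 bp upstream of the start. The largest host of all, Arpc2 (a subunit of the actin-nucleating Arp2/3 complex), holds 17 box H/ACA genes, 10 copies of Psi18S-525 and 7 of Psi18S-640, and had none in the optimal list.

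The other hosts with a large snoRNA load were mostly without a promoter summit in the optimal list, though not all in replicate 1. Uhg1 (16 snoRNA genes, all box C/D), dom (15; a chromatin-remodelling ATPase) and Uhg5 (11, all box C/D) had their nearest optimal summit 17667, 39200 and 46599 bp from a start. Sf3b3 (9; a subunit of the U2 snRNP), kra (8), Hrb98DE (7; an hnRNP) and Nop60B (7) had theirs at 8702, 19506, 14315 and 11389 bp. In replicate 1, dom had a promoter entry of 69.1 and kra one of 98.6. Of the hosts with 7 genes, RpS7 had a summit with a signal of 212 (101 and 113 in replicates 1 and 4), 4 bp from a start. Uhg4, also with 7 genes, had its summit 43 bp upstream of its start. Among hosts with 5 genes, RpL28 had a summit, and CG10576, RpS16 and lncRNA:CR45184 did not. Among hosts with 4, RpL3, RpL17, RpL23A, lola and egr (98.8) had one, and Uhg2 and Uhg7 did not.

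**Figure D4:**
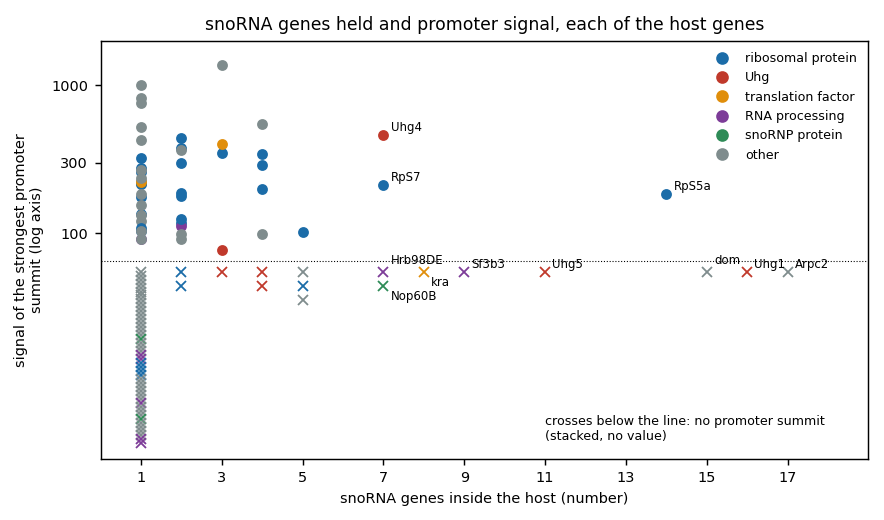
Each of the 109 hosts by the number of snoRNA genes it holds and the deposited signal of its strongest promoter summit on a log axis. Circles are hosts with a promoter summit, crosses under the dotted line are hosts without one and have no signal value; of the 7 hosts with 8 or more snoRNA genes only RpS5a is a circle.

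The Uhg genes, whose known product is their snoRNAs, had a promoter summit in 2 of 7 cases (28.6%) in the optimal list, Uhg4 and Uhg8. Of all non-coding RNA genes 9.84% had one, with 10.2% in replicate 1 and 9.38% in replicate 4, so the difference rests on 2 genes. Replicate 4 alone had Uhg4 and Uhg8 among its strongest entries, and replicate 1 alone had Uhg4 and Uhg2. Uhg4 was strong in both, as given above. Uhg8, host of 3 copies of Me18S-U1356, had the weakest signal of any host, 77.4, with 30.02 in replicate 1 and 40.5 in replicate 4, and its summit lay 225 bp inside the gene. Uhg1, Uhg2, Uhg3, Uhg5 and Uhg7 had none in the optimal list, and Uhg2 had an entry of 109 in replicate 1. Uhg7 overlaps RpL23A and holds the same 4 snoRNA genes, and RpL23A had the summit. The 7 Uhg genes hold 48 snoRNA genes, of which 10 are in Uhg4 and Uhg8.

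Counted by snoRNA gene rather than by host, 110 of the 257 hosted genes (42.8%) had a host with a promoter summit. The counts were 163 (63.4%) in replicate 1 and 98 (38.1%) in replicate 4. Of all protein-coding, non-coding RNA and pseudogene entries 15.5% had a promoter summit, with 18.1% in replicate 1 and 14.8% in replicate 4. That background counts each gene once, whereas a host counts here for every snoRNA gene it holds. Without the genes held by any ribosomal protein host it was 47 of 181 (26%). Host starts downstream of a snoRNA were counted too, as for kis-a in kis, and distances to a host start include them. The classes had similar shares: 42 of 105 box C/D genes (40%), 47 of 110 box H/ACA genes (42.7%) and 7 of 15 scaRNAs (46.7%). The target named in the symbol made little difference, with 27 of 64 genes for 18S ribosomal RNA (42.2%) and 46 of 111 for 28S (41.4%). Psi18S-525 was the 1 family in which some copies had a host with a promoter summit and others had none, when a copy is scored by any of its hosts: 10 copies are in Arpc2 and the other is in Msp300. The 3 copies of Me28S-A2634 all lie in RpL23A, which has a summit, and also in Uhg7, which has none.

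The snoRNA genes themselves were near summits in about the share of genes in general. A summit lay within 1 kb of the start of 43 of 269 snoRNA genes (16.0%), with 54 (20.1%) in replicate 1 and 41 (15.2%) in replicate 4, against 17.3% of all genes (20.2% in replicate 1 and 16.6% in replicate 4). Other classes had 18.2% for protein-coding genes, 15.9% for non-coding RNA genes, 14.5% for transfer RNA genes and 12.5% for small nuclear RNA genes. The 43 snoRNA genes shared 28 summits, and 35 of them (81.4%) were counted through a summit within 500 bp of a start of their host. In 40 of the 43 the summit lay upstream of the snoRNA, at a median distance of 701 bp, where a gene with several summits is counted by its strongest. Box C/D genes had 23 of 109 (21.1%) and box H/ACA genes 12 of 114 (10.5%).

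Distance from the host start went with this count. Of the 87 hosted snoRNA genes within 1 kb of a host start, 32 (36.8%) had a summit within 1 kb, and of the 170 further away 10 did (5.88%). A summit lay within 500 bp of 14 of the 269 snoRNA genes (5.2%) and within 250 bp of 5 (1.86%). Shares over all genes were not counted at these distances from the outermost start. By the nearest summit, the closest was Or-aca2, 40 bp from the summit shared by RpS6 and CR33222. Me18S-G1358c in RpL15 followed at 91 bp, CG43051-a in CG43051 at 115 bp, Psi28S-2949 in Uhg4 at 142 bp and snoRNA:185 at 182 bp. At the limit itself, Psi28S-2996 in RpL5 lay exactly 1000 bp from its summit, and Me28S-A982a, gcl-a and Psi28S-3436b fell just outside at 1007, 1008 and 1023 bp.

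**Figure D5:**
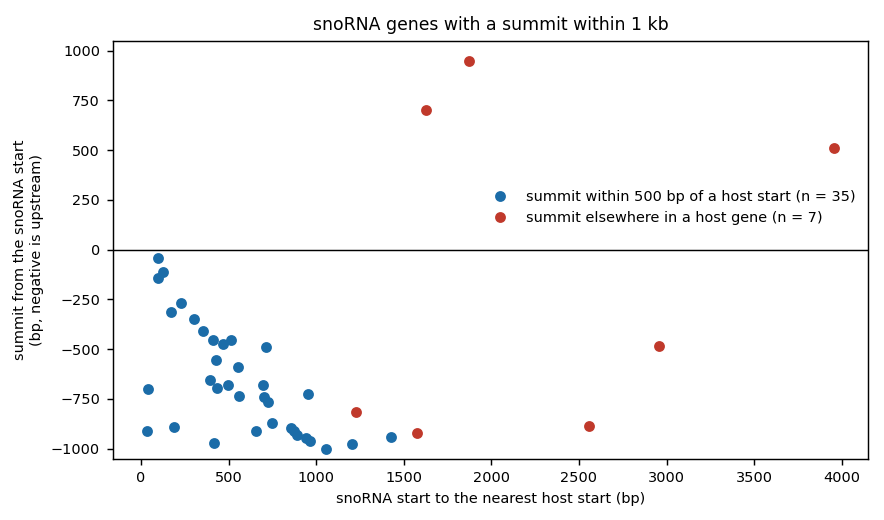
Each hosted snoRNA gene with a summit within 1 kb, by its distance in bp to the nearest host start and the position of the summit in bp from the snoRNA start, negative upstream. Blue points (n = 35) have a summit within 500 bp of a host start and red points (n = 7) a summit elsewhere in the host; many blue points fall along a line where the summit is at the nearest host start and some lie below it, and snoRNA:185, which has no host, is not drawn.

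For 8 snoRNA genes the summit within 1 kb was not at a host start. Next to 3 of them was the same summit, inside egr (a tumour necrosis factor-like ligand), with a signal of 265 (149 in replicate 1 and 108 in replicate 4). It lay 3358 bp from the nearest start of a protein-coding, non-coding RNA or pseudogene entry. The 3 snoRNA genes are scaRNA:MeU1b-A234 at 887 bp, Or-ACA6 at 486 bp and Or-CD13 at 511 bp, all on the strand opposite to egr. lola-a and lola-b, in an intron of lola, lay 701 and 946 bp from a summit with a signal of 316 (141 and 175). Me18S-G1358a in drn lay 814 bp from a summit of 303 (177 and 129). Me28S-U3344a in Stt3A lay 922 bp from a summit of 292 (142 and 148), which is not the strong one at the promoter. snoRNA:185, which has no host, lay 182 bp from a summit of 142 (66.99 and 76.04) and is the closest of the 8. Both replicates had an entry at each of these summits.

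Summits elsewhere in the body, more than 500 bp from any start of the gene, were found in 15 of the 49 hosts with a promoter summit (30.6%), against 29.4% of protein-coding genes with one. Of the 60 hosts without a promoter summit 4 had one (6.67%), against 5.55% of such protein-coding genes. Both shares are near the background. The 4 were CG10936, CG31191, CG42238 and stet, chosen here after their values were seen. In CG10936, CG42238 and stet the snoRNA gene lies on the strand opposite to the host. Hosts with a summit in the body had a median length of 36318 bp and hosts with none 2572.5 bp.

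A host without an optimal summit was not always without signal. In the 7055 strongest entries of replicate 1, 14 of the 60 had a promoter entry, and in those of replicate 4, 1 had. The entries in replicate 1 included Irbp (a Ku70 homologue) with a signal of 213, RpS16 with 145, RpL11 with 129, Uhg2 with 109, RpL27A with 100.3 and kra with 98.6. Among the hosts with the largest load, dom had 69.1 and Arpc2 45.4 in replicate 1. Uhg1 and Uhg5 had weaker entries there, of 37.6 and 34.7, outside the 7055 strongest, and no entry in replicate 4. The entry in replicate 4 was RpL10Ab, with 86.1. The pooled list, from which the optimal list was drawn, lacked many of these: 12 of the 61 hosts with an entry among the strongest of replicate 1 had no pooled promoter entry (19.7%), against 16.8% of protein-coding genes, and for replicate 4 it was 1 of 44 (2.27%) against 3.66%. Why the pooled list lacks them was not tested. A weaker pooled entry, between 20.6 and 69.4, lay at 8 of the 60, among them Arpc2 with 62.8. No entry within 500 bp of a start in any of the 4 lists was found for 33 of the 109 hosts (30.3%). Among these were Sf3b3, Nop60B, CG10576, Uhg3, Uhg7 and RpL36A. Shares over all genes were not counted for the 33 hosts or for the entries at the 60.

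Short sequence words were counted from 250 bp upstream to 50 bp downstream of the start used by most transcripts. In some hosts, among them bun, mtgo and kis, that is not the start with the strongest promoter summit. Shares for hosts with a summit therefore include windows away from that summit. The letters CTTT at the start, part of the pyrimidine run of ribosomal protein genes, were present in 13 of 22 ribosomal protein hosts with a promoter summit (59.1%) and in 2 of 7 without one. In other hosts they were present in 3 of 27 with a summit (11.1%) and 6 of 53 without one (11.3%), against 5.63% of all protein-coding genes. At these starts the word was more frequent in the ribosomal protein group, and in other hosts its share was alike with and without a summit.

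The remaining words were counted on both strands in the same window. TATCGATA, which is bound by the factor DREF, was in 16.3% of hosts with a promoter summit and 21.7% of hosts without one, against 9.24% of all protein-coding genes. CACGTG, an E-box bound by Myc, was in 1 of 49 hosts with a summit (2.04%) and 10 of 60 without one (16.7%), against 4.24%. ACAAT, the core of the sequence that Sox proteins bind, was in 51% of hosts with a summit and 71.7% of hosts without one, against 61.3%. GAGAG was in 38.8% and 30%, against 30.3%, and GGTCACACT in 10.2% and 11.7%, against 6.07%. Within 50 bp of the summit, ACAAT was found at 22.9% of host promoter summits, against 25.4% of the promoter summits of protein-coding genes and 29% of all optimal summits. Among ribosomal protein hosts it was found at 3 of 22 summits (13.6%). Matches of letters are descriptions, and occupancy by any of these factors was not measured.

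Transcript levels and chromatin accessibility were not measured in these samples. Whether summits at ribosomal protein and other host promoters go with high expression was therefore not tested.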

How the data were processed

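Sox102F-GFP ChIP-seq peaks from 2 biological replicates (1 and 4) were analysed as deposited peak lists on dm6. The authors deposited a signal value and a summit offset for every peak, and both were used unchanged. The records that accompany the deposited files say that alignments and a control went into each list, and that the optimal list derives from the pooled and replicate lists. Which aligner, peak caller and threshold of the irreproducible discovery rate were used is not given in the sources used here. Lists on dm3 were not used. Of the peaks on the arms used, 0 end beyond the release 6 sequence.

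Genes and starts came from Ensembl release 115 (assembly BDGP6.54) on 6 arms, without transposable elements. Coordinates are counted from 1. A gene's promoter summit is the strongest within 500 bp of any start, and a replicate's value is its entry within 100 bp of that summit. Cytoplasmic ribosomal protein genes and snoRNA classes were read from symbols. Counts and medians were made in Python 3.11.15, and the placement of summits was tested on simulated data. There is 1 group, so no test was made. The number of replicates, 2, limits every value, and depth is unknown.

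The genes named are the snoRNA genes near a summit that is away from host starts, the 15 hosts with the strongest promoter summit, hosts with 4 or more snoRNA genes, every Uhg, ribosomal protein and snoRNP gene, and hosts near the distance limit. Some genes that the rule would name are not reported here. Members and lists were chosen with earlier results of these data known. The translation, RNA-processing and snoRNP kinds of host were assigned after values were seen. Alternatives covered each replicate alone, the 3527 strongest optimal summits, the whole pooled list, other distances, same-strand hosts, the outermost start, and protein-coding hosts.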

Additional observations from a re-analysis of the deposited data

How the results depend on the processing

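snoRNA genes with a summit within 1 kb (43) ranged from 41 to 54 with a single replicate, and became 67 with all entries of the pooled list, 14 at 500 bp and 5 at 250 bp. Hosts with a promoter summit (49) ranged from 44 to 61 with a single replicate and stayed between 33 and 57 under the other planned settings. snoRNA genes whose host has one (110) ranged from 98 to 163 with a single replicate. Leaving out ribosomal protein genes, an alternative chosen after seeing the data, gave 24 of 67 protein-coding hosts and 47 of 181 snoRNA genes, or 48 of 189 where those with another host were kept. Hosts other than ribosomal protein genes (27) ranged from 24 to 36 with a single replicate, and 17 had one among the 3527 strongest optimal summits. snoRNP genes (1) ranged from 3 to 6 with a single replicate, were 2 with the pooled list and 3 at 1 kb. Fewer or more entries and distances change these counts by construction; why the replicate lists hold snoRNP genes that the optimal list lacks was not tested. No paired analysis was possible because there is 1 group and no test. Depth is unknown, so a missing summit is not evidence of no binding.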
